A study of Mus musculus with 13 samples.

Results

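The 10 genes studied here encode replacement histones and linker histones, and they were followed across single mouse oocytes. They were H3f3a and H3f3b for histone H3.3, H2afz and H2afv for H2A.Z, H2afx for H2A.X, H2afy for macroH2A, H2afj for H2A.J, and H1foo, H1f0 and H1fx for linker histones. They were chosen by gene symbol, with the count and FPKM values of these libraries already known, and make up 10 of the 18939 genes with counts and of the 49686 genes with FPKM values. All 10 were measured, and 9 had enough reads for a test in each comparison. H1fx did not.

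The libraries came from 13 single oocytes of C57BL/6 females, 3 to 4 weeks old, collected 48 h after PMSG, a gonadotropin that makes follicles grow. Every oocyte was injected with mRNA for FBL-GFP, a tagged nucleolar protein, and for H2B-mCherry, and was held for 6 h in 10 µM Cilostamide, which keeps oocytes at the germinal vesicle (GV) stage. By the FBL-GFP pattern they were sorted into NSN oocytes, with chromatin spread through the nucleus, and SN oocytes, with chromatin around the nucleolus. The groups were SN GV (n = 3), NSN GV (n = 3), metaphase II oocytes matured in vitro from SN GV oocytes (SN-MII, n = 4) and from NSN GV oocytes (NSN-MII, n = 3). The mice behind each oocyte are not given, so p-values measure the spread between these single oocytes. Only NSN oocytes that reached MII could be collected as NSN-MII. No histone gene described here is the injected H2B.

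Library totals lay between 7140416 and 8846287 estimated counts. All 10 oocyte markers, such as Zp3 and Gdf9, reached 1 FPKM in every group, with summed levels between 14505 and 19447 FPKM in GV, 13709 and 14438 FPKM in SN-MII and 11676 and 12883 FPKM in NSN-MII libraries. Of 10 markers of cumulus and granulosa cells, 5 ever reached 1 FPKM, Foxl2 and Ptx3 were at 0 in all 13 libraries, and the summed level was 18.7 to 31.7 FPKM in GV libraries and 35.4 to 58.8 FPKM in MII libraries. Most of that sum was Cyp19a1, at 16.8 to 27.6 FPKM in GV and 30.2 to 53.05 FPKM in MII libraries, while Fshr, at up to 1.06 FPKM in GV libraries, was at 0 in all 7 MII libraries. The part of these levels in the stage differences given here was not tested.

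Nucleosomes wind DNA around core histones, and most core histones are made in S phase for new DNA. Replacement histones can be made and put into chromatin at any time, which matters in an oocyte that does not replicate its DNA. H3.3 is deposited by the HIRA complex and by DAXX with ATRX, H2A.Z is exchanged by the SRCAP and EP400 complexes, and H2A.X is phosphorylated around DNA breaks. Linker histones bind where DNA enters and leaves the nucleosome, and H1foo encodes the oocyte form. During maturation the oocyte is transcriptionally silent and lives on stored mRNA, part of which is degraded and part of which is given longer poly(A) tails.

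H3.3 is encoded by a pair of genes whose coding sequences differ mainly at the third base of codons, and H2A.Z by a pair of genes for near-identical proteins. The starts of the coding sequences are shown because they let a read tell the members of each pair apart, which the comparison between them rests on. They are the first 90 coding bases of GENCODE M21 transcripts (GRCm38), read 5′ to 3′ on the strand of the gene, and capitals mark the bases that differ from the other gene of the pair.
H3f3a: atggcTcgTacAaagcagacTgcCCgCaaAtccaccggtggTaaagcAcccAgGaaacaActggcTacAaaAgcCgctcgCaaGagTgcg
H3f3b: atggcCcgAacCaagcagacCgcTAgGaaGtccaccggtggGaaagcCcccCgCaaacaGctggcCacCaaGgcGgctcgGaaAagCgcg
H2afz: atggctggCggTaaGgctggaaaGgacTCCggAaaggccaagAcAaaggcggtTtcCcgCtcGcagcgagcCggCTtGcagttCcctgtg
H2afv: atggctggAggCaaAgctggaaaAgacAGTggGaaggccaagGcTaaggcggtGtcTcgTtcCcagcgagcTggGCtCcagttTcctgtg
Within these 90 bases, H3f3a and H3f3b differed at 20 positions, and H2afz and H2afv at 19. Over the whole coding sequence of 411 bases, H3f3a and H3f3b differed at 95 bases (76.9% identical), 81 of them at the third base of a codon, and the longest identical run was 23 bases. H2afz and H2afv differed at 81 of 387 bases (79.1% identical), 70 of them at the third codon base, with a longest identical run of 14 bases.

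Longer stretches are shared with other genes, both copies elsewhere and genes overlapping a member on the other strand. Of all 75-base windows of the H3f3a coding sequence, 77.7% were found unchanged, on either strand, in transcripts of other genes. Over its whole transcript, 29 other genes shared a window. Among them were Gm17275, which overlaps H3f3a on the other strand and shared 20.6% of its windows, and H3f3c, listed at up to 84.3 FPKM. For H2afz the coding share was 100%. Over its whole transcript Tmcc1, listed at up to 3.12 FPKM, shared the most windows (59.8%), followed by Gm8203 (31.5%), listed at up to 34.6 FPKM. The coding share was 27.9% for H3f3b, 25.1% for H2afx, 21.2% for H2afj and 11.96% for H2afy. For H2afj and H2afy the only gene sharing windows was one overlapping on the other strand, Gm44364 and Gm47071 respectively. For H2afx the gene sharing the most windows of the whole transcript (5.11%), Gm44335, also overlaps it on the other strand. No coding window of H2afv, H1foo or H1f0 was shared. The H2afz and H3f3a values may hold reads of such other genes, since the authors' estimate divides reads that fit several genes. The part of such reads in these values was not tested.

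In SN GV oocytes the genes fell into a wide order of levels per length. H1foo was at 4519 ± 186 FPKM (SD, n = 3) and ranked 9 of 49686 genes, followed by H3f3b at 1003 ± 47.3 and H3f3a at 822 ± 81.5 FPKM. H2afx was at 220.2 ± 23.9, H2afj at 91.1 ± 13.7, H2afz at 46.6 ± 29.4, H2afv at 42.8 ± 9.86, H2afy at 9.55 ± 2.04, H1f0 at 6.74 ± 0.641 and H1fx at 0.107 ± 0.00577 FPKM. Of neighbours in that order, the library ranges overlapped for H2afz and H2afv and for no other pair. The order was the same in NSN GV oocytes, where H3f3b with H3f3a, H2afj with H2afz, H2afz with H2afv, and H2afy with H1f0 overlapped. At MII, H1foo, H3f3b and H3f3a still led in both types, while H2afj and H2afv had moved down among the low genes. H1f0, H2afj, H2afv and H2afy overlapped from neighbour to neighbour in SN-MII and in NSN-MII oocytes. H2afx stood above H2afz in SN-MII oocytes with overlapping ranges, and below it in NSN-MII oocytes without overlap. In NSN-MII oocytes the range of H3f3a also met that of H2afz.

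**Figure D1:**
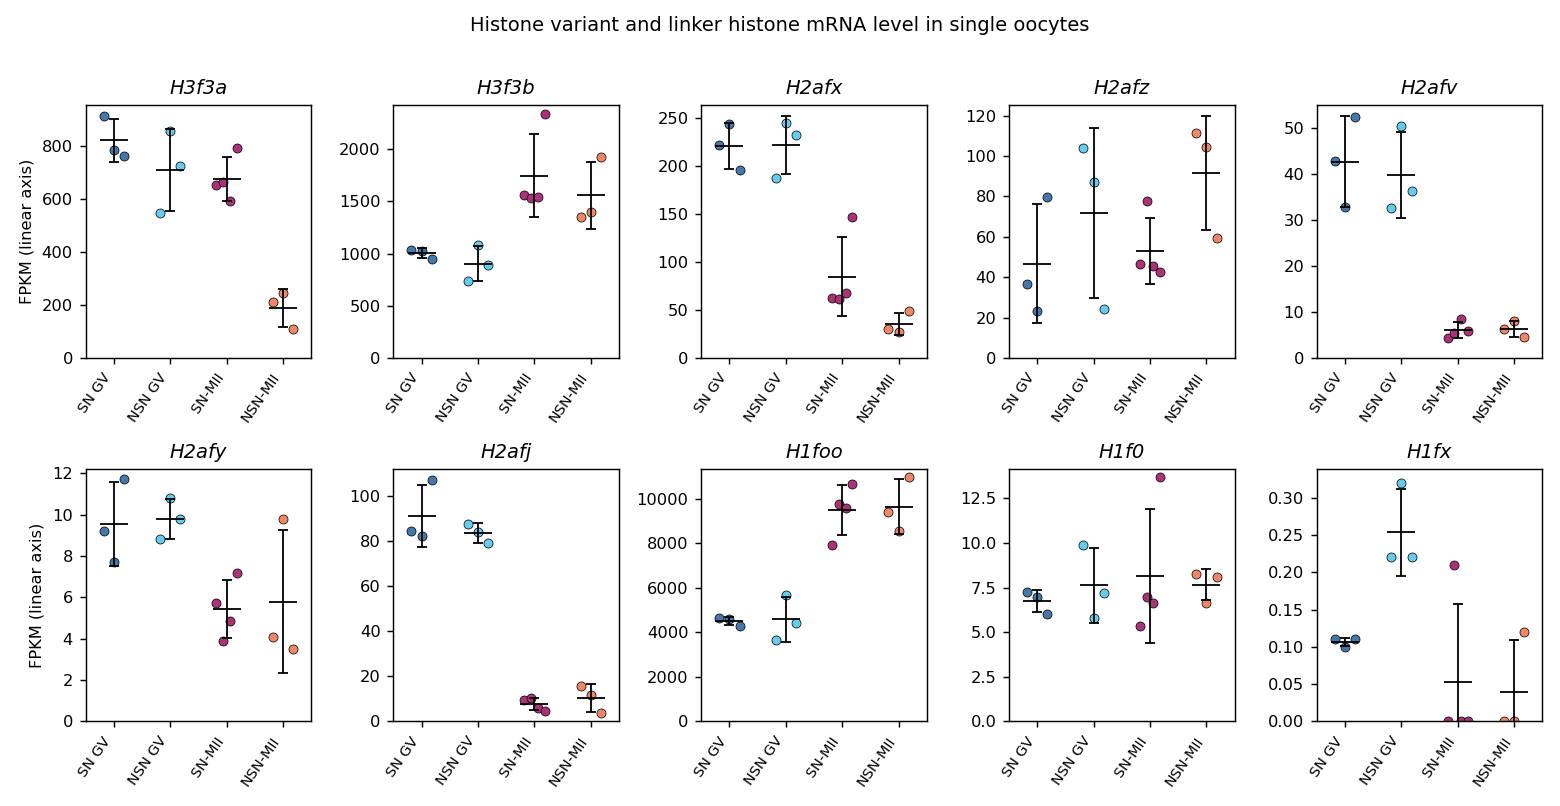
FPKM of each of the 10 genes (linear axes from 0, a different scale in each panel) in the 4 groups, with 1 point per oocyte and a bar for the mean ± SD. H3f3a is low in the 3 NSN-MII oocytes alone, H2afv and H2afj are low in all 7 MII oocytes, and H3f3b and H1foo are high in all 7.

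H3f3a, at chromosome 1:180800832-180813943 (minus strand, GRCm38), was the 1 histone gene called between NSN-MII and SN-MII oocytes. Its level was 915, 788 and 763 FPKM in the SN GV oocytes and 547, 857 and 724 FPKM in the NSN GV oocytes. It was 654, 665, 592 and 792 FPKM in the SN-MII oocytes and 211, 245 and 109.8 FPKM in the NSN-MII oocytes. Every NSN-MII oocyte lay below each of the other 10, and the other groups overlapped one another. In NSN-MII against SN-MII oocytes H3f3a fell, with a log2 fold change of -1.98 ± 0.24 (SE), or 0.254 times the SN-MII level (adjusted p = 0.00821, quasi-likelihood test of edgeR with p-values adjusted by Benjamini-Hochberg over 10028 genes). At GV the NSN over SN difference was -0.27 ± 0.21 (adjusted p = 0.99997 in the same test). From GV to MII its log2 fold change was -0.17 ± 0.25 in SN oocytes and -1.88 ± 0.27 in NSN oocytes.

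The difference between those stage changes, the interaction of oocyte type with stage in a fit over 11375 genes, was -1.70 ± 0.37 (edgeR adjusted p = 0.202, unadjusted p = 0.000253), so it did not pass, while DESeq2 gave it an adjusted p of 0.00813. The call in NSN-MII oocytes was lost without the first NSN-MII library (-2.05, adjusted p = 0.0635), with the replicate number as a block (-1.94, adjusted p = 0.0862) and in each of the 3 limma fits on FPKM (-1.91, adjusted p = 0.0596 to 0.166). Its smallest adjusted p came without the third NSN-MII library (-1.73, adjusted p = 0.000586). The third NSN-MII library, with the lowest H3f3a level, also had the fewest genes detected of the 13 (11579, against 11818 to 13333) and the lowest level of the oocyte marker Zp3 (42.7 FPKM, against 151 to 275 FPKM in the other MII libraries). The summed oocyte markers were lower in each NSN-MII than in each SN-MII library, and Bmp15, one of them, was at 248 to 664 FPKM in NSN-MII and 1044 to 1129 FPKM in SN-MII oocytes. The part of these levels in the H3f3a and H2afx differences at MII was not tested. The 2 overlapping genes on the other strand, Gm17275 and H3f3aos, were listed at no more than 0.15 and 2.44 FPKM.

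H3f3b, at chromosome 11:116021912-116027962 (minus strand), encodes the same protein and was higher at MII in both oocyte types. Its level was 1038, 1022 and 949 FPKM in SN GV and 738, 1079.95 and 892 FPKM in NSN GV oocytes. It was 1559, 1531, 1544 and 2341 FPKM in SN-MII and 1350.3, 1397 and 1922 FPKM in NSN-MII oocytes. All 7 MII oocytes lay above all 6 GV oocytes. H3f3b rose from GV to MII by a log2 fold change of 1.01 ± 0.18 (2.01-fold, edgeR adjusted p = 9.14e-05), with 0.9999 ± 0.25 in SN and 1.02 ± 0.26 in NSN oocytes. Its NSN over SN difference was -0.16 ± 0.18 at GV and -0.16 ± 0.22 at MII, neither of which passed the test (edgeR adjusted p = 0.99997 and 0.898).

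Put together, H3f3b held 55.03% ± 1.69 (SD, n = 3) of the summed FPKM of both H3.3 genes in SN GV and 56.1% ± 1.17 (n = 3) in NSN GV oocytes. Its share was 71.8% ± 2.23 (n = 4) in SN-MII and 88.7% ± 5.14 (n = 3) in NSN-MII oocytes. The lowest share in an NSN-MII oocyte, 85.1%, lay above the highest in an SN-MII oocyte, 74.7%. The summed level of H3f3a and H3f3b was 1825 ± 121 FPKM in SN GV, 1613 ± 326 in NSN GV, 2419 ± 477 in SN-MII and 1745 ± 251 in NSN-MII oocytes. On this summed FPKM scale each NSN-MII oocyte, at 1562 to 2031 FPKM, lay below each SN-MII oocyte, at 2136 to 3133 FPKM. The ranges of NSN-MII and GV oocytes overlapped. In CPM, which is not scaled for gene length, the summed ranges of NSN-MII and SN-MII oocytes overlapped. H3f3b alone was at 3353 CPM in an NSN-MII oocyte, against 2514 CPM beside 490 CPM of H3f3a in an SN-MII oocyte. The other NSN-MII oocytes, with H3f3b at 2027 and 2098 CPM and H3f3a at 141 and 164 CPM, lay below every SN-MII oocyte. These shares and sums are descriptions without a test. Counts and FPKM are shares of each library's reads, and the cDNA was primed on poly(A) tails, so the amount of an mRNA, the total around it and the length of its tail cannot be told apart.

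**Figure D2:**
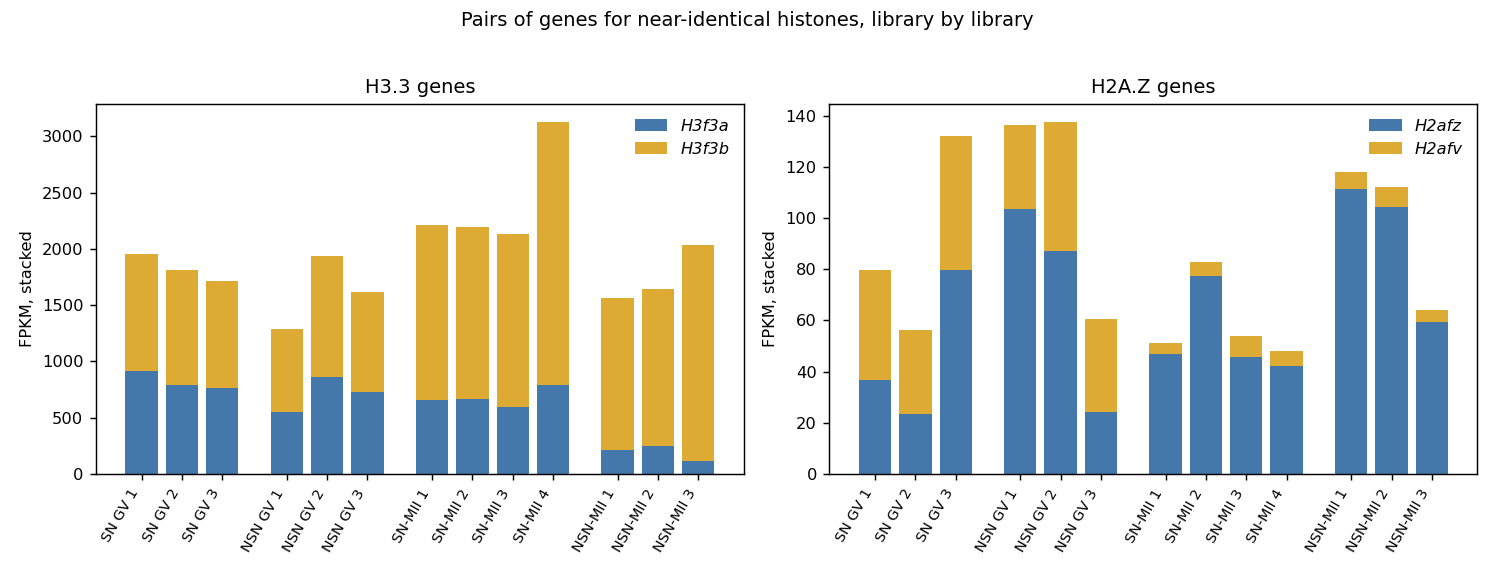
Stacked FPKM of H3f3a and H3f3b (left) and of H2afz and H2afv (right), 1 bar per oocyte. H3f3a is the smallest portion of the H3.3 bar in the NSN-MII oocytes, and H2afv is a thin portion of the H2A.Z bar in all 7 MII oocytes.

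The H2A.Z pair also differed between its members. H2afv, at chromosome 11:6427229-6444443 (minus strand), was at 42.9, 32.9 and 52.6 FPKM in SN GV and 32.6, 50.5 and 36.3 FPKM in NSN GV oocytes. It was at 4.43, 5.46, 8.46 and 5.89 FPKM in SN-MII and 6.31, 8.08 and 4.60 FPKM in NSN-MII oocytes. No MII oocyte reached the lowest GV oocyte, and the oocyte types overlapped within each stage. H2afv fell from GV to MII by 2.46 on the log2 scale (SE 0.23, edgeR adjusted p = 8.57e-08), with a log2 fold change of -2.52 ± 0.31 in SN and -2.41 ± 0.34 in NSN oocytes.

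H2afz, at chromosome 3:137864487-137866922 (plus strand), encodes the other H2A.Z form. Its level was 36.8, 23.4 and 79.7 FPKM in SN GV and 104, 87.3 and 24.2 FPKM in NSN GV oocytes. It was 46.7, 77.5, 45.6 and 42.3 FPKM in SN-MII and 112, 104 and 59.4 FPKM in NSN-MII oocytes. The oocytes of each group spread widely and all groups overlapped in pairs. At GV its biological coefficient of variation in the edgeR fit, the relative spread beyond counting error, was 0.480, above that of 81.2% of the genes tested. H2afz had a log2 fold change of 0.39 ± 0.31 from GV to MII (adjusted p = 0.283) and of 0.77 ± 0.26 in NSN-MII over SN-MII oocytes (adjusted p = 0.337, unadjusted p = 0.0134, edgeR), neither past the threshold.

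The H2afz share of their summed FPKM was 49.3% ± 9.72 (SD, n = 3) in SN GV, 59.8% ± 18.3 (n = 3) in NSN GV, 89.2% ± 3.99 (n = 4) in SN-MII and 93.4% ± 1.06 (n = 3) in NSN-MII oocytes. Their summed level overlapped between stages, at 56.3 to 137.8 FPKM at GV and 48.2 to 117.9 FPKM at MII. These shares and sums are likewise descriptions.

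H2afx, at chromosome 9:44334694-44336077 (plus strand), encodes the H2A form phosphorylated at DNA breaks. Its level was 221, 244 and 196 FPKM in SN GV and 187, 245 and 232 FPKM in NSN GV oocytes. It was 62.3, 61.7, 68.0 and 146 FPKM in SN-MII and 30.3, 26.6 and 48.9 FPKM in NSN-MII oocytes. All MII oocytes lay below all GV oocytes on this scale, and all NSN-MII oocytes below all SN-MII oocytes, of which the fourth stood far above its group. In CPM the stages overlapped, with that SN-MII oocyte at 227 CPM and the first NSN GV oocyte at 212 CPM. H2afx fell from GV to MII by 1.84 on the log2 scale (SE 0.25, edgeR adjusted p = 7.12e-06), with a log2 fold change of -1.21 ± 0.34 in SN and -2.48 ± 0.39 in NSN oocytes.

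In NSN-MII over SN-MII oocytes the H2afx log2 fold change was -1.29 ± 0.38, which did not pass over all genes (edgeR adjusted p = 0.228, unadjusted p = 0.00533), although DESeq2 called it (adjusted p = 0.0312). It was -0.84 without the fourth SN-MII library (adjusted p = 0.452) and -1.73 without the third NSN-MII library (adjusted p = 0.0367). Its interaction of type and stage was -1.27 ± 0.50 (edgeR adjusted p = 0.823, unadjusted p = 0.0225), and its GV difference was -0.0052 ± 0.18. The H2afx mRNA level says nothing of the phosphorylated protein. A miRNA gene overlapping it on the other strand, Gm44335, was listed at up to 55.5 FPKM.

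H2afj, at chromosome 6:136808244-136810074 (plus strand), encodes a further H2A variant and was low at MII in both types. It was at 84.4, 82.05 and 107 FPKM in SN GV and 87.6, 83.9 and 79.0 FPKM in NSN GV oocytes. It was at 9.67, 10.6, 6.03 and 4.68 FPKM in SN-MII and 15.7, 11.7 and 3.63 FPKM in NSN-MII oocytes. The stages were far apart, and the types overlapped within each. H2afj fell by 2.50 on the log2 scale (SE 0.24, edgeR adjusted p = 9.64e-08) in counts, and by 3.27 with limma on log2(FPKM + 1). Beside this difference between scales, the counts behind 1 FPKM, set against each library's median over 2840 well-measured genes, were 1.65 times as many at MII as at GV for this gene. A miRNA gene overlapping it, Gm44364, was listed at up to 109 FPKM.

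H2afy, at chromosome 13:56073619-56136361 (minus strand), encodes macroH2A, a variant with a large extra domain known from the inactive X chromosome. Its levels were 7.71 to 11.8 FPKM in the 6 GV oocytes and 3.53 to 9.80 FPKM in the 7 MII oocytes, and on FPKM the second NSN-MII oocyte alone reached the GV range. In CPM that oocyte, at 10.5, and the fourth SN-MII oocyte, at 9.95, lay within the GV range of 8.52 to 11.4 CPM. The counts behind 1 FPKM, taken as for H2afj, were 1.21 times as many at MII as at GV. The log2 fold change from GV to MII was -0.41 ± 0.27 in counts (edgeR adjusted p = 0.186). On FPKM it was -0.75 and called (limma on log2(FPKM + 1), adjusted p = 0.00782), and it was also called with libraries scaled by their totals alone (-0.71, adjusted p = 0.0242). Its NSN over SN difference at MII was 0.0015 ± 0.41.

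H1foo, at chromosome 6:115944938-115950236 (plus strand), was the highest of the 3 linker histone genes in every oocyte. It was at 4645, 4606 and 4305 FPKM in SN GV and 3649, 5671 and 4435 FPKM in NSN GV oocytes. It was at 7932, 9759.95, 9594 and 10660.4 FPKM in SN-MII and 9386, 8541 and 10969 FPKM in NSN-MII oocytes. Every MII oocyte lay above every GV oocyte, and the types overlapped within each stage. H1foo rose from GV to MII by a log2 fold change of 1.22 ± 0.16 (2.33-fold, edgeR adjusted p = 4.84e-06), with 1.23 ± 0.23 in SN and 1.22 ± 0.24 in NSN oocytes. By mean FPKM it ranked 7 among all genes in NSN GV, 3 in SN-MII and 2 in NSN-MII oocytes. The NSN over SN difference was 0.013 ± 0.18 at GV and -0.0091 ± 0.18 at MII.

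The somatic linker histone genes were low. H1f0, at chromosome 15:79028450-79030504 (plus strand), encodes the linker histone of cells that have stopped dividing and lay between 5.34 and 13.7 FPKM in all 13 oocytes, with all groups overlapping. Its log2 fold change from GV to MII was 0.31 ± 0.25 (edgeR adjusted p = 0.284). With libraries scaled by their totals alone it was -0.0088, so no direction is given. H1fx, at chromosome 6:87980421-87981637 (minus strand), had at most 3 counts and 0.32 FPKM in any library and was not detectable above the floor of 3 counts, so no fold is given. H1foo held at least 99.7% of the summed FPKM of these 3 linker histone genes in each oocyte, a sum that leaves out the S-phase linker histone genes.

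Read over the genes, MII was compared with GV over both types to ask which of them changed as oocytes matured. In that comparison 68.6% of 11375 genes passed, 31.7% higher and 36.9% lower, and 6 of the 9 tested histone genes passed. H3f3b and H1foo were higher, and H3f3a, H2afx, H2afv and H2afj were lower. For H3f3a this average joins -0.17 in SN and -1.88 in NSN oocytes. The CPM ranges of the stages did not overlap for 4 of the 9 (H3f3b, H1foo, H2afv and H2afj), against 47.4% of all genes. The median log2 fold change was -0.41 over the 9 genes and -0.10 over all genes tested. Scaling by library totals shifted the median of all genes to -0.39, and the 6 genes kept their direction under it.

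At each stage NSN oocytes were set against SN oocytes to ask whether the chromatin type before maturation goes with other mRNA levels. At GV, 0% of 10839 genes passed edgeR's test and 1.75% had an unadjusted p under 0.05. None of the 9 histone genes passed it, 0 had an unadjusted p under 0.05, and 0 passed in DESeq2 (0% of all genes) or in limma on log2(FPKM + 1) (0.00846%). Their log2 fold changes lay between -0.27 for H3f3a and 0.62 for H2afz, and 0 of the 9 had CPM ranges without overlap, against 6.03% of all genes. At MII, 0.259% of 10028 genes passed, 0.249% with lower and 0.00997% with higher counts in the NSN-MII group, and H3f3a was the 1 histone gene among them. H3f3a and H2afx had CPM ranges without overlap, against 10.2% of all genes, and 3 of the 9 (H3f3a, H2afx and H2afz) had an unadjusted p under 0.05, against 9.38%. DESeq2 called 2 of the 9, H3f3a and H2afx, and 2.16% of all genes, while limma called 0 of the 9 and 0.0383%. In the interaction, 0.0176% of 11375 genes and 0 of the 9 passed edgeR's test, 2 had an unadjusted p under 0.05 (5.33% of all genes) and 1, H3f3a, passed in DESeq2 (0.343%). Limma called 0 of the 9 and 0.00868% of all genes. As the set was drawn up with results of these data known, its counts are descriptions.

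**Figure D3:**
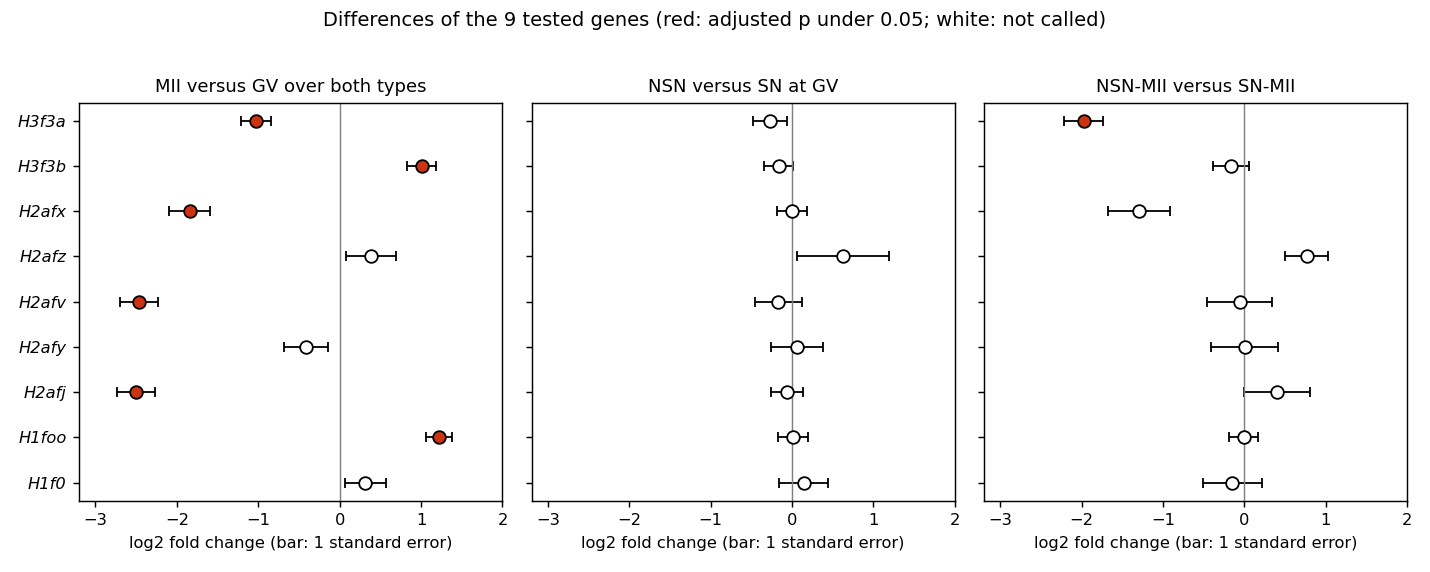
Log2 fold changes (edgeR, bars of 1 standard error) of the 9 tested genes for MII over GV, NSN over SN at GV and NSN-MII over SN-MII, with red points for genes past an adjusted p of 0.05. In the first panel 6 points are red, in the second none, and in the third H3f3a alone, at -1.98.

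The factors that place these histones were read from gene lists beside the histone genes. In this comparison of MII with GV, 31.7% of all genes passed as higher and 36.9% as lower, and the median log2 fold change of all genes was -0.10, against which the counts and medians of the lists stand. Of the 8 genes for H3.3 deposition, 7 rose from GV to MII, none fell and Asf1a did not pass (0.74 ± 0.33, adjusted p = 0.0591), with a median log2 fold change of 1.34. The largest rises were those of Ubn2, at 1.79 ± 0.26, and Ubn1, at 1.64 ± 0.21, both partners of HIRA. Hira itself, at 1.42 ± 0.55, went from a mean of 1.78 CPM in GV to 4.73 CPM in MII oocytes with overlapping ranges (adjusted p = 0.0312). Daxx, the chaperone that works with ATRX, was at 0.58 ± 0.19 (adjusted p = 0.0133). The Daxx call was lost with libraries scaled by their totals (0.25, adjusted p = 0.202), as was that of Hira (1.15, adjusted p = 0.0887). With limma on FPKM the Hira difference was 0.53 or 0.75 by the pseudocount and was not called (adjusted p = 0.141 to 0.265), and without a filter limma did not call Daxx (0.44, adjusted p = 0.0803). Leaving out any 1 of the first or the third SN GV, the first or the second NSN GV, the first or the third SN-MII, or either the third or the first NSN-MII library also lost the Hira call (adjusted p = 0.0527 to 0.0753).

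Of the 9 genes for H2A.Z exchange, 5 rose, 3 fell and Actr6 did not pass, with a median of 0.95. Vps72, whose protein carries H2A.Z in the SRCAP complex, rose by a log2 fold change of 1.27 ± 0.17, and Anp32e, whose protein takes H2A.Z out of chromatin, by 1.29 ± 0.29, a call lost with limma on log2(FPKM + 1) without a filter (0.75, adjusted p = 0.0677). Znhit1, another SRCAP subunit, was at 27.1 CPM in GV and 1.81 CPM in MII oocytes (log2 fold change -3.87 ± 0.34). Ruvbl2, an ATPase of both exchange complexes and of others, went from 167 to 12.9 CPM (-3.74 ± 0.22). Vps72 and Znhit1, both for subunits of the SRCAP complex, thus moved in opposite directions.

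Of 17 general histone chaperones, 6 were higher, 6 lower and 5 did not pass, near the shares over all genes, with a median of 0.067. Rbbp7, at 1.45 ± 0.17, and Ssrp1, a subunit of the FACT complex, at 0.97 ± 0.16, had the largest rises, and Nap1l1, a chaperone of H2A and H2B, rose by 0.92 ± 0.17. Npm2, the oocyte nucleoplasmin that stores histones, fell from 1108 CPM in GV to 230.2 CPM in MII oocytes (-2.25 ± 0.14). Chaf1b, a subunit of the CAF-1 complex that follows DNA replication, fell the furthest, from 31.2 to 0.955 CPM (-4.99 ± 0.41). Of 3 genes that place the centromeric H3, Hjurp (0.80 ± 0.16) rose, and Mis18a (-3.23 ± 0.25) and Oip5 (-2.80 ± 0.47) fell, with a median of -2.80.

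Of the 10 genes for H2AX phosphorylation and its readers, 3 rose, none fell and 7 did not pass, with a median of 0.57, so that the share that rose was near that of all genes and the share called was smaller. Trp53bp1, whose protein gathers at breaks, rose by 1.54 ± 0.18 and Baz1b, a kinase of H2A.X, by 1.52 ± 0.18. Atm, Atr and Prkdc, the kinases that answer DNA breaks, had log2 fold changes of 0.72 ± 0.37, 0.54 ± 0.35 and 0.37 ± 0.39, none past the threshold (adjusted p = 0.0950, 0.188 and 0.408). Over all 6 lists, 35 of 51 tested genes passed, a share called like the 68.6% of all genes. Of the 51, 23 were higher and 12 lower, a larger and a smaller share than the 31.7% and 36.9% of all genes.

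Of 11 other histone variants, 4 had enough reads for a test, of which 1 passed as higher and 1 as lower at MII. Cenpa, the centromeric H3, was at the threshold (0.37 ± 0.16, adjusted p = 0.0499) and passed in none of the other tools or scalings. Its call was also lost without any 1 SN GV library, the first or the third NSN GV library, the first, the third or the fourth SN-MII library, or the third NSN-MII library (adjusted p = 0.0518 to 0.193). H2afy2, the second macroH2A gene, was at 4.73 to 6.12 CPM in GV and 0.657 to 1.23 CPM in SN-MII oocytes, and at no more than 1 count in any NSN-MII oocyte. It was called lower at MII (adjusted p = 8.83e-07), and no fold is given because the NSN-MII libraries were at the floor.

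**Figure D4:**
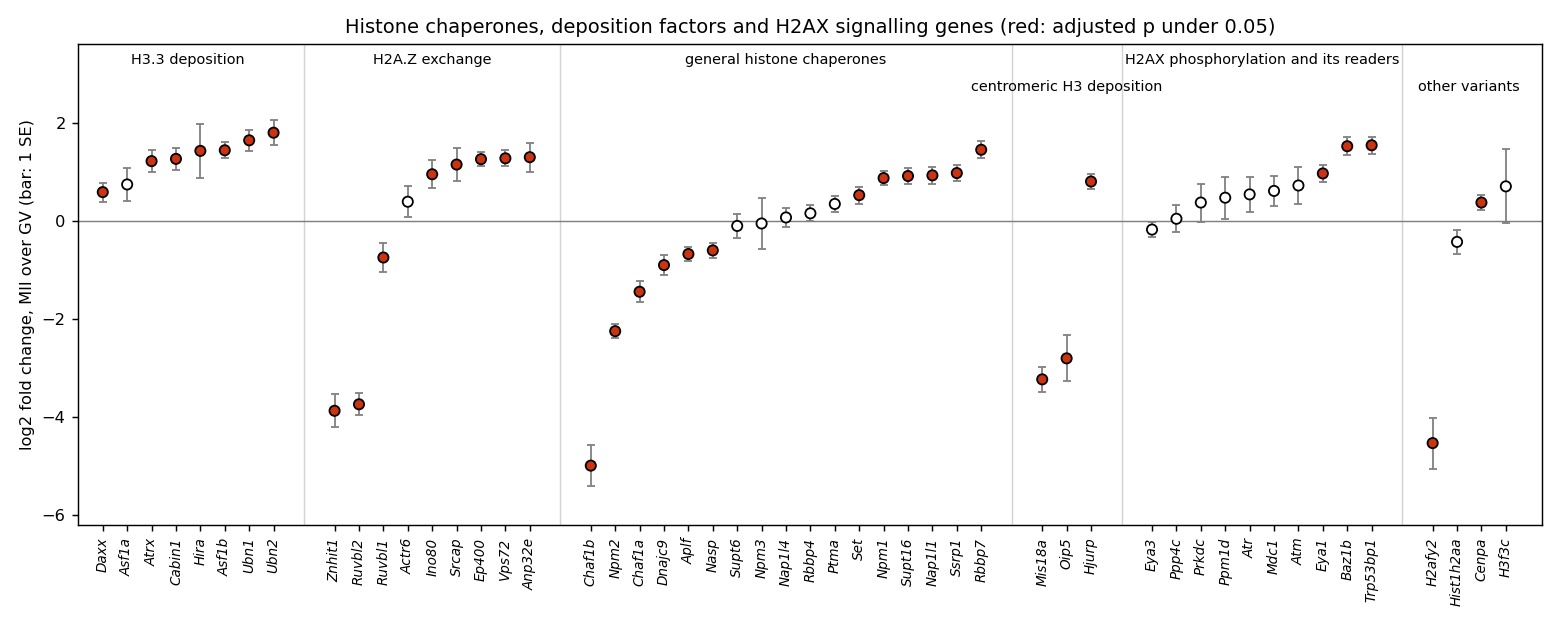
Log2 fold changes, MII over GV (edgeR, bars of 1 standard error), of the 51 tested genes of the 6 lists, ordered within each list, with red points for an adjusted p under 0.05. All 7 red points among the genes for H3.3 deposition lie above 0, while the other lists with more than 1 red point, except that for H2AX phosphorylation, have red points on both sides.

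In NSN-MII against SN-MII oocytes, 0 of 50 tested genes of these lists passed edgeR's test, 4 had an unadjusted p under 0.05, DESeq2 called 2 and limma none, against 0.259%, 9.38%, 2.16% and 0.0383% of all genes, so these counts lay near the background. The 8 genes for H3.3 deposition, none of them called, had a median log2 fold change of 0.11 there, against 0.019 over all genes.

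The genes whose level followed H3f3a most closely were found from profiles of log2(CPM + 1), centred per gene over the 13 libraries, among 11375 genes. The root mean square difference from H3f3a was 0.248 for Lmbrd1, 0.271 for Aurkb, 0.331 for Gemin8, 0.353 for Npas2 and 0.367 for Rnf5. Aurkb, the kinase Aurora B, was at a mean of 29.4 CPM in SN GV, 25.4 in NSN GV, 26.1 in SN-MII and 5.07 CPM in NSN-MII oocytes. Lmbrd1 was at 64.0, 58.6, 49.7 and 16.4 CPM in the same order. The likeness is a description over these libraries alone, with no test.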

How the data were processed

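RNA-seq was done on 13 single oocytes, with libraries made with SMART-seq2 and Tn5 (Nextera) and sequenced on HiSeq X-10, with groups taken from the sample labels. The authors trimmed reads with Trim Galore 0.4.4, mapped them to mm10 with Bowtie2 2.3.5 and quantified genes with RSEM 1.2.28. The deposited tables hold estimated counts, 1 table per stage, of which up to 16.6% of a library's values were not whole, and FPKM values, 1 table for all libraries, scaled by the authors for length and depth. Read length and a strand-specific step are not given in the sources used here, so genes overlapping on the other strand cannot be told apart.

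The members and gene lists were chosen with earlier results of these data known. A gene of these lists is not reported here and was left out of their counts. Counts were rounded to whole numbers, filtered with filterByExpr and scaled with TMM factors. Groups were compared by edgeR's quasi-likelihood test (edgeR 4.0.16, R 4.3.3), with Benjamini-Hochberg adjustment over all genes tested and calls at an adjusted p under 0.05. That test returns no standard error. Those given with edgeR values are approximate, the absolute log2 fold change divided by the square root of the test's F statistic. CPM values are counts relative to the TMM-scaled library total. DESeq2 1.42.0, limma 3.58.1 on log2(FPKM + 1) and log2(FPKM + 0.1), other size factors, no filter, all libraries in 1 fit, a 1.5-fold minimum, the replicate number as a block and leaving out each library were alternatives. Library totals without a scaling factor were added after seeing the data. All member genes were named, with 6 fixed genes of the lists (Hira, Daxx, Anp32e, Npm2, Nap1l1 and Cenpa), up to 2 largest called rises and falls per list, and the 5 genes most like H3f3a. Asf1a, Actr6, Atm, Atr, Prkdc, H3f3c, Hist1h2aa, H1fnt, Hils1, H2afb2, H2afb3, single cell type markers and genes overlapping or sharing windows with members were named after their values were seen. GENCODE M21 (GRCm38) gave coordinates and sequences, and 18887 symbols (99.7%) matched it. No libraries of the same group were copies of one another, and libraries of different groups were not compared for this. With 3 counts or fewer in each library a group was treated as at the floor. The test was checked on counts simulated with the spread that edgeR itself had fitted, which cannot show how it behaves on real oocytes. Counting intervals were not used, since PCR reads without molecular identifiers are not independent molecules.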

Additional observations from a re-analysis of the deposited data

Results flagged for a closer look

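Single oocytes stood apart from their group for 5 of the 9 histone genes in SN-MII oocytes, the only group of 4, by Dixon's 95% criterion on the gap to the nearest oocyte over the range. Chance flags about 1 in 20 such groups, and values of 1 oocyte share its library. The fourth SN-MII oocyte was the highest for H3f3b, at 3834 CPM, for H2afx, at 227 CPM, for H2afy, at 9.95 CPM, and for H1f0, at 33.3 CPM. The second SN-MII oocyte was the highest for H2afz, at 76.8 CPM. The fourth SN-MII library had the highest total, 8846287 counts, and the part of that in these values was not tested.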

How the results depend on the processing

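The 6 histone genes called between GV and MII passed with the same direction in each alternative and without each library. In NSN-MII against SN-MII oocytes the number of histone genes called was 2 with DESeq2, 0 with limma on log2(FPKM + 1), on log2(FPKM + 0.1) and without a filter, and 0 to 2 when single libraries were left out (1 in the main test). Shares over all genes were taken for the main test, DESeq2 and limma on log2(FPKM + 1) alone. Counts from other settings stand without such a share and cannot be set against all genes. The H3f3a difference stayed between -2.20 and -1.73 without single libraries. DESeq2 called 1 histone gene in the interaction of type and stage. For the deposition, exchange and signalling lists in NSN-MII against SN-MII oocytes, DESeq2 called 2 genes, the fit over all libraries 1, and fits without single libraries 0 to 1. Genes called in NSN-MII against SN-MII oocytes over the whole table numbered 26 with edgeR and 217 with DESeq2, and in the interaction 2 and 39. The causes of these differences were not tested. Library totals, added after the data were seen, turned the stage difference of H1f0 to -0.0088.

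What the replicate numbers stand for is not given, and the main test did not use them as a block. Whether oocytes of the same number shared a mouse or a day cannot be told from the values here. The correlation of deviations from the group means between libraries of the same number was -0.217, -0.206 and -0.458 at GV and 0.0186, 0.0966 and -0.119 at MII. With the replicate number as a block, 0 histone genes were called in NSN-MII against SN-MII oocytes (H3f3a -1.94, adjusted p = 0.0862), 6 between stages and 0 at GV. The share of all genes called with the block was not taken. The block turned H1foo to -0.016 at GV and 0.068 at MII, and H1f0 to 0.27 at MII.

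Other turned signs were of differences between NSN and SN oocytes that passed in no setting, all on the log2 scale. On log2(FPKM + 1), with or without a filter, and on log2(FPKM + 0.1), limma gave H2afx 0.0024 and H1foo -0.0016 at GV, and H1foo 0.022 at MII. At MII the 2 pseudocounts gave H2afv 0.056 and 0.065 and H2afy -0.0066 and -0.022, the smaller one gave H1f0 0.0028, and no filter on low counts gave H2afy -0.0022. Without single libraries, differences at GV ranged from -0.11 to 0.13 for H2afx, -0.044 to 0.17 for H2afy, -0.15 to 0.058 for H2afj, -0.19 to 0.18 for H1foo and -0.047 to 0.28 for H1f0. At MII they ranged from -0.42 to 0.029 for H3f3b, -0.20 to 0.14 for H2afv, -0.37 to 0.29 for H2afy, -0.22 to 0.10 for H1foo and -0.31 to 0.27 for H1f0. With 3 or 4 oocytes per group, the common biological coefficient of variation was 0.352 at GV and 0.344 at MII, and at this depth H1fx, and H2afy2 in NSN-MII oocytes, lay at the floor of 3 counts.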

Other observations

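H3f3c, a further H3.3-like gene that shares 75-base windows with H3f3a, was erratic between oocytes. It lay between 0 and 5.61 CPM in SN GV, 0 and 13.3 CPM in NSN GV, 3.32 and 21.8 CPM in SN-MII and 2.10 and 4.76 CPM in NSN-MII oocytes, with at most 170 counts in any library. In NSN-MII over SN-MII oocytes the H3f3c log2 fold change was -2.08 ± 0.59 (edgeR adjusted p = 0.212, unadjusted p = 0.00411), beside -1.98 ± 0.24 for H3f3a. How the division of shared reads between H3f3a and H3f3c enters these values was not tested. Hist1h2aa, an H2A form known from germ cells, was at 10.4 to 20.2 CPM in GV and 9.55 to 18.5 CPM in MII oocytes. The male germ cell genes H1fnt and Hils1 and the H2A genes H2afb2 and H2afb3 had 0 counts in all 13 libraries, which does not show absence below the floor of 3 counts per library.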
